A study of Drosophila melanogaster with 4 samples.

Results

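The achaete-scute complex is a cluster of genes near the tip of the X chromosome of Drosophila melanogaster. It was examined as a fixed window of 70 kb, from 245 to 315 kb on X in FlyBase release 5, in maps of histone H3 monomethylated at lysine 4 (H3K4me1). Its members here were the H3K4me1-enriched regions that shared at least 1 base with that window. There was 1 such region among 7177 in ChIP replicate 1, 0 among 9903 in ChIP replicate 2 and 1 among 9501 in the combined list of the series. The window is defined by position. The maps came from nuclei of third-instar larvae of the wild-type strain Oregon-R, the last larval stage, by chromatin immunoprecipitation with sequencing (ChIP-seq). There were 2 ChIP samples, made with 1 lot of 1 antibody, and 2 input samples of the same strain and stage, which served as background and have no region list here. No treatment, mutation or tissue dissection was named, so each list averages over the tissues of the larva. How marked a stretch is within a tissue, and how many cells carry the mark, cannot be told apart. The region lists hold no expression values, and the labelled stage could not be checked against marker genes.

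The complex takes its name from bristle mutants and encodes 4 related transcription factors of the basic helix-loop-helix family. Proneural factors of this kind, acting with the partner protein Daughterless, give groups of ectodermal cells the ability to become neural precursors, and Notch signalling then restricts that fate to single cells. Achaete (ac) and Scute (sc) act in the proneural clusters of the imaginal discs from which sensory bristles arise. Lethal of scute (l(1)sc) is best known for its part in forming neuroblasts in the embryo. Asense (ase) acts later, in the neural precursors themselves. In textbook accounts much of the DNA between these genes consists of enhancers, each driving expression in certain clusters of cells, and ac and sc share several of them. H3K4me1 is a mark commonly found at enhancers and beside active promoters.

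The window could not be divided among the genes. A gene table of release 6 lists all 4 genes on X, in the order ac, sc, l(1)sc and ase. Between y, the yellow pigmentation gene, and ac it lists the non-coding RNA gene lncRNA:yar, between ac and sc the genes lncRNA:CR44751, lncRNA:CR44752 and lncRNA:CR44753, and between l(1)sc and ase the gene Pgcl. In that table the distance from ac to ase is longer than the 70 kb of the window, while ac to l(1)sc is shorter. Unless distances differ between the releases, the window therefore cannot hold the whole complex, and it is called the achaete-scute window here. Positions were not carried from one release to the other, so no region was assigned to ac, sc, l(1)sc or ase.

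H3K4me1-enriched regions were nearly absent from the achaete-scute window in all 3 lists. They covered 2.51% of its bases in replicate 1 and 0% in replicate 2, a mean of 1.26% ± 1.78 (SD, n = 2). The combined list covered 1.43% of it. Over the other 318 windows of this length on X, the median covered share was 27.0% for replicate 1, 29.8% for replicate 2 and 36.4% for the combined list. The mean of the replicate medians was 28.4% ± 1.94 (SD, n = 2), and both values of the achaete-scute window lay below the first quartile of their list. Those quartiles were 9.84% for replicate 1, 10.95% for replicate 2 and 14.99% for the combined list. The labels call the replicates separate samples but name no separate cultures, so the spread between them may be technical. There are too few samples for an exact test to pass a usual threshold, none was made, and these are values with their spread.

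**Figure D1:**
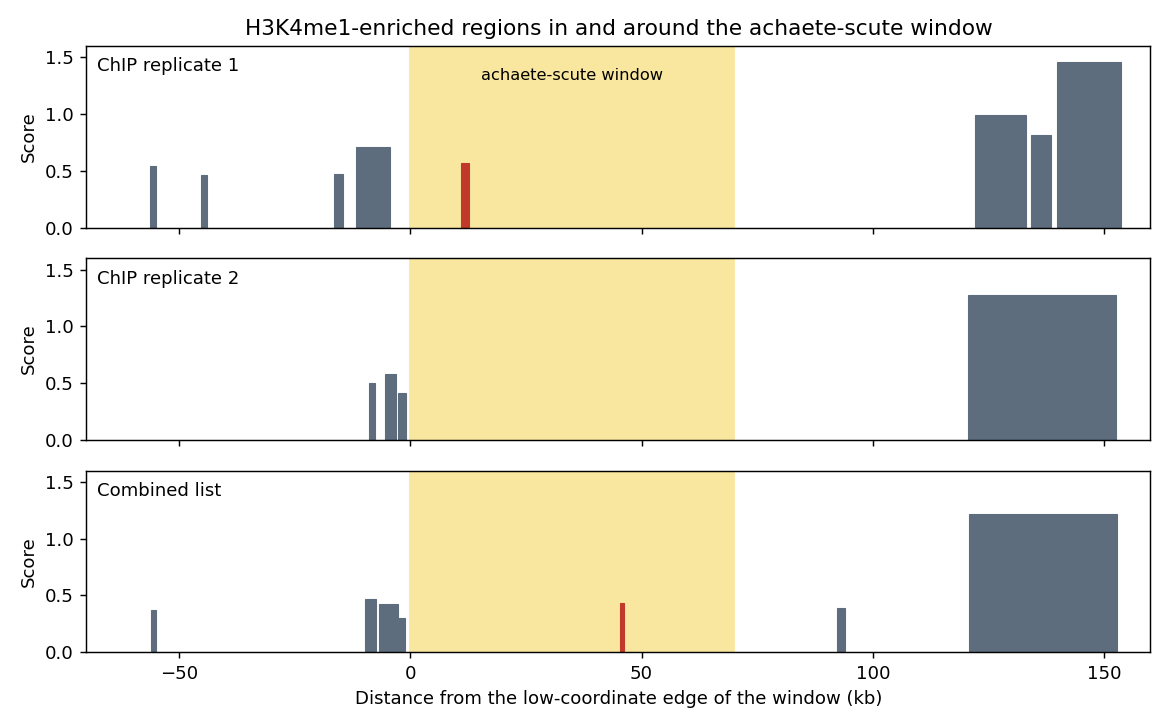
The 3 panels show the enriched regions of each list on both sides of the achaete-scute window, with distance from its low-coordinate edge in kb on the horizontal axis and the deposited score as bar height. The shaded window holds 1 red bar in replicate 1, none in replicate 2 and 1 in the combined list, at different places, while the region that begins at about 121 kb stands in each list.

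Bare windows were common on X, and the achaete-scute window was one of many. In replicate 1, 47 of the other 318 windows (14.8%, 95% Wilson interval 11.3 to 19.1%) were covered as little or less, and 45 (14.2%) had no enriched region at all. In replicate 2, 39 of 318 (12.3%, interval 9.10 to 16.3%) likewise had none. In the combined list 35 of 318 (11.0%, interval 8.02 to 14.9%) were covered as little or less, and all 35 were empty. With ties counted as one part in 2, the window stood at percentile 14.8 by replicate 1, 6.13 by replicate 2 and 11.0 by the combined list. It was therefore in the lowest 15% of X by covered share in each list, without being exceptional there. These windows are all the whole ones of X, not a random sample, and adjacent ones can lie in the same gap. The intervals, and those of the score ranks below, are therefore given as a scale only. They do not measure the spread between replicates.

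Some other windows of X were bare in all 3 lists, whereas the achaete-scute window was bare in replicate 2 only. There were 32 windows with no region in any of the 3 lists, 12 of them within the 2 Mb next to the centromere and 20 elsewhere on X. In both replicates, 38 windows were covered as little as the achaete-scute window or less, 25 of them outside those 2 Mb. The number of regions gave the same picture. The window held 1, 0 and 1 regions in replicate 1, replicate 2 and the combined list, against medians of 4, 6 and 6 regions in the other windows and maxima of 12, 16 and 18.

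**Figure D2:**
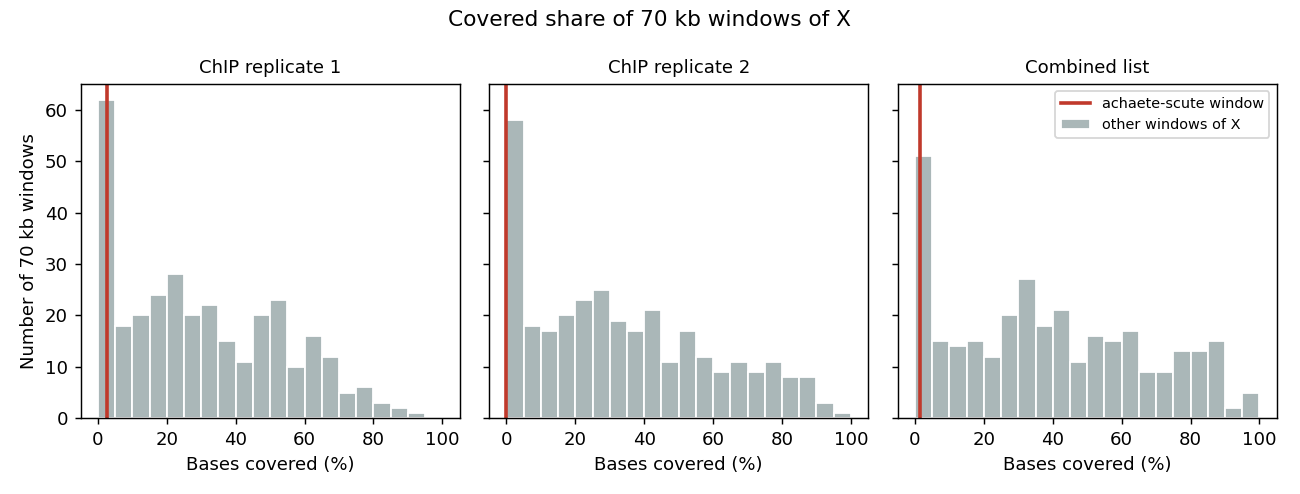
Each panel counts the 318 other 70 kb windows of X by their covered share in steps of 5 percentage points, and the red line marks the achaete-scute window at 2.51%, 0% and 1.43% from left to right. The line falls in the lowest and tallest bar of each panel.

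The 2 regions found in the window lay apart from each other and were each listed once. The region of replicate 1 was X:256022-257781, 1760 bases wide with a score of 0.57, and began 11.0 kb into the window. The region of the combined list was X:290300-291300, 1001 bases wide with a score of 0.43, and began 45.3 kb into the window. The score is the authors' own value per region, its scale is not stated, and it is compared here only as a rank within a list.

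Neither region was met by any other list. On X as a whole, 90.2% of the 1335 regions of replicate 1 were met by a region of replicate 2, and 97.6% by the combined list. A share of 2.32% (31 regions) were met by neither, as the region in the achaete-scute window was. This was not particular to the window, since X:199754-201095 and X:228626-230378 of replicate 1, in the 70 kb before it, were also met by neither. Of the 1733 regions of the combined list on X, 9.06% (157 regions) were met by neither replicate. Among the 193 of them that were at most 1300 bases wide, the share was 53.4%, so a narrow combined region without a counterpart was a common case. Regions that narrow were absent from both replicate lists on X, where the narrowest measured 1302 bases in replicate 1 and 1301 bases in replicate 2. The replicates shared 0 bases in the achaete-scute window, out of a union of 1760. That value was fixed by the lack of any region in replicate 2, and both replicates left most of the window unmarked. In the 280 other windows with any covered base in either replicate, the median shared part of the union was 60.3% (quartiles 44.1% and 71.6%), and it was 0 in 9 of them. How the combined list was made is not stated, so its region was not counted as independent of the replicates.

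Both regions were narrow and had scores below the median of their list. The region of replicate 1 had a higher score than 16.3% of the other regions of X (Wilson interval 14.5 to 18.4%) and was wider than 15.1% of them. The median region of X in that list had a score of 0.76 and a width of 3245 bases. The region of the combined list had a higher score than 35.4% of the others (interval 33.2 to 37.7%), and its 1001 bases are the smallest width in the list on X, found in 6 regions. The median region of X in that list had a score of 0.52 and a width of 2911 bases. Set against windows with at least 1 region, and with scores averaged over covered bases, the achaete-scute window stood at percentile 3.30 of 273 in replicate 1 and at 7.77 of 283 in the combined list. The median of those windows was 0.91 in replicate 1 and 0.78 in the combined list. An association of score with width was not computed, but both regions ranked higher among regions of like width. Among the 132 other regions of like width the region of replicate 1 stood at score percentile 72.0, and among 173 the region of the combined list stood at 63.6. Both regions were thus in the lower part of X by score, and above the middle of the narrow regions they belong with.

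**Figure D3:**
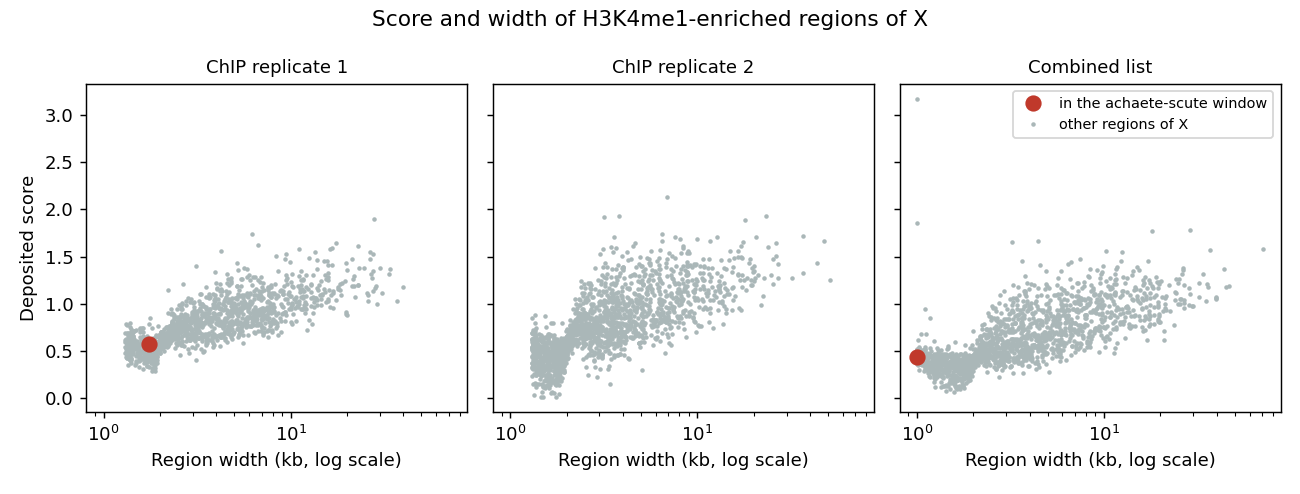
Each point is an enriched region of X, with its width in kb on a log scale and its deposited score on the vertical axis, in 1 panel per list. The red points, at 1.76 kb and 0.57 in replicate 1 and at 1.00 kb and 0.43 in the combined list, lie among the narrow, low-scoring regions, and replicate 2 has none.

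Long stretches without an enriched region spanned the achaete-scute window. In replicate 1 such a gap ran from X:257782 to X:367006, 109.2 kb, and ranked 30 by length among 1336 gaps of X. A shorter one of 15.3 kb, X:240697-256021, lay on the other side of its region. In replicate 2 a single gap, X:244010-365601, took in the whole window and ranked 22 of 1774 with 121.6 kb. In the combined list gaps of 46.5 kb (X:243840-290299, rank 70 of 1730) and 45.9 kb (X:291301-337172, rank 72) lay on either side of its region. The median gap of X measured 2252, 1652 and 1358.5 bases in the same order of lists. Of the gaps of replicate 2 that were longer than the one over the window, 5 lay in the 2 Mb next to the centromere and 16 elsewhere on X.

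Within the window alone, the longest gap was 57.2 kb in replicate 1 and all 70001 bases in replicate 2, a mean of 63.6 kb ± 9.04 (SD, n = 2). By the combined list it was 45.3 kb. The longest gap of the other windows had a median of 31209.5, 26151.5 and 25733 bases by replicate 1, replicate 2 and the combined list. A gap at least as long as that of the achaete-scute window was found in 67, 39 and 86 of the 318 other windows in replicate 1, replicate 2 and the combined list. Taking the replicates together, no region of either lay in X:257782-365601, a stretch of 107.8 kb that ranked 25 among 1493 such common gaps of X. The combined list has regions inside this stretch, X:290300-291300 and X:337173-339078. With all 3 lists, the gaps left there that reach into the window measured 32.5 kb (X:257782-290299) and 45.9 kb (X:291301-337172). They ranked 94 and 69 among 1572. The stretch of 107.8 kb free of replicate regions is longer than the distance from ac to ase in the release 6 table. Whether these genes lie in it was not determined. A gap says only that no region is listed. Read depth is unknown, and whether reads can be placed uniquely across the window was not tested.

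**Figure D4:**
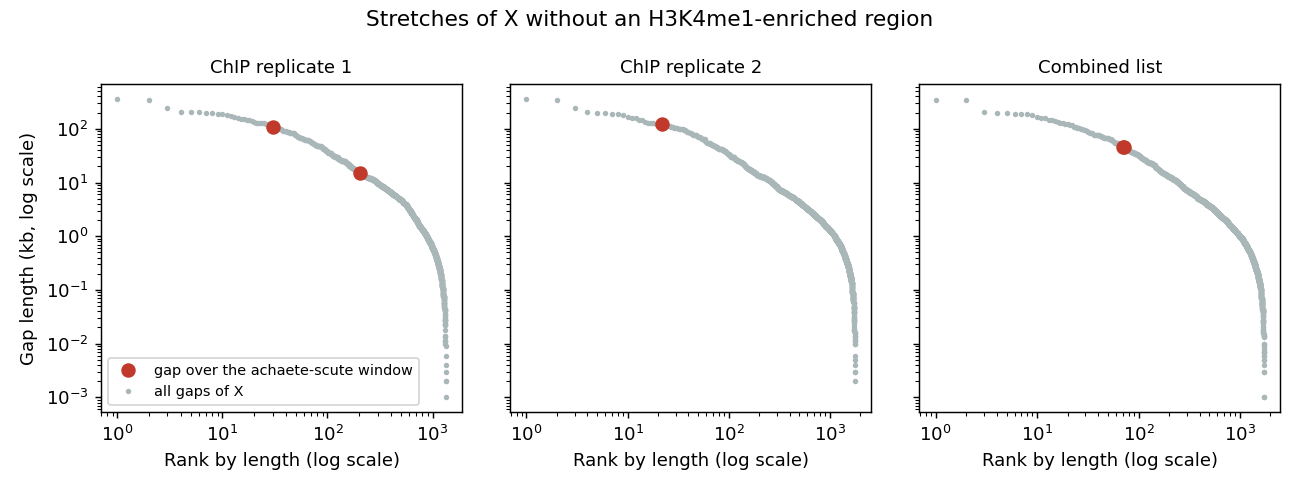
Gaps between enriched regions of X are ranked by length in each list, with rank and length in kb on log scales, and red points mark the gaps that reach into the achaete-scute window. The red points include the gap of 109.2 kb at rank 30 in replicate 1 and that of 121.6 kb at rank 22 in replicate 2, while the pair at about 46 kb in the combined list overlap.

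The achaete-scute window was covered less than the 70 kb on either side of it, in all 3 lists. On the low-coordinate side (X:174999-244999) the differences, window minus stretch, were -14.5, -7.80 and -11.4 percentage points in replicate 1, replicate 2 and the combined list, where the stretch was covered to 17.0%, 7.80% and 12.8%. Over the replicates the mean difference was -11.1 ± 4.74 (SD, n = 2). On the high-coordinate side (X:315001-385001) the differences were -20.2, -27.7 and -28.9 percentage points, with 22.7%, 27.7% and 30.3% of the stretch covered, and the mean over the replicates was -23.9 ± 5.35 (SD, n = 2). The size of the high-side difference depended on where the window ended, since the wide domain described below lies at the far end of that stretch. With the window narrowed by 5 kb at each end, and the stretch shortened with it, the mean over the replicates was -4.70 and the combined list gave -8.67. With the window widened by 5 kb at each end the values were -35.4 and -38.4. Neither side was densely marked. The low side stood at percentiles 33.5, 21.5 and 22.5 of the windows of X in the 3 lists, and the high side at 43.2, 47.0 and 41.0.

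The stretch before the window was marked close to its edge in all 3 lists. Replicate 2 listed nothing else there, while replicate 1 and the combined list each had a region more than 50 kb before the window (X:188837-190141 and X:188940-190016), and replicate 1 had others in between. The last 10 kb before the window were covered to 57.0% by replicate 1, 54.6% by replicate 2 and 79.0% by the combined list. The last region before the window ended 4303 bases short of it in replicate 1, 990 in replicate 2 and 1160 by the combined list. The edge of the window therefore falls close to the end of a marked cluster, and replicates placed that end 3313 bases apart. Across the 7 bins of 10 kb in the window, 1 bin was marked in replicate 1 (17.6% of its bases) and 1 other bin in the combined list (10.0%). Past the window, the next 5 bins held no region in either replicate, and the combined list had 1 region there, X:337173-339078, met by neither replicate.

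Beyond that a wide domain began, at X:367007 in replicate 1 and X:365602 in replicate 2, starts that differ by 1405 bases. Replicate 2 listed it as a single region of 32.0 kb (X:365602-397613) with a score above 91.0% of the other regions of X, and the combined list as one of 32.1 kb (X:365704-397829) above 96.7% of them. Replicate 1 listed 3 pieces, with score percentiles of 78.4, 58.4 and 98.7. The replicates shared 86.4% of their union over this domain, whereas the shared part of the union was 17.0% in the low-coordinate stretch. For the achaete-scute window this measure is fixed at 0% because replicate 2 listed no region there, so it is not set against these values.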

How the data were processed

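Each ChIP list was made by the authors with the input of its own replicate as background, per the labels. The submitters' processing notes name Bowtie 0.12.7, a read aligner, and the file headers give FlyBase release 5 as the build. For the region caller, its settings and the making of the combined list, the sources used here give nothing. Each deposited region has 1 score, whose scale is not stated, so that scores were ranked within a list. Regions named as depleted were left out, and none lay in the window. Read depth is unknown.

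Covered shares used the union of enriched regions clipped to X:245000-315000, and 1 shared base counted as overlap. The 318 other windows of X were whole, did not overlap and had the same length. Percentiles are descriptions, and no test was made. All regions of the window are named. The window, genes and comparisons were chosen with earlier results of these data known. Genes were not placed, since the gene table used is of another release, 6. Mean scores per window weighted regions by covered bases and left out windows without a region. No sequence is shown, as none of release 5 was used here. Alternatives left out a replicate or changed the score limit, merging, window edges, reference windows, overlap rules, adjoining stretches and ranking. Interval functions matched base-by-base counts in 200 of 200 trials when tested on simulated data. Python 3.11.15, NumPy 2.4.6, SciPy 1.17.1 and Matplotlib 3.10.9 were used.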

Additional observations from a re-analysis of the deposited data

How the results depend on the processing

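No paired analysis was possible because the groups that share replicate numbers are ChIP and input, and the inputs have no region list here. Differences between the window and its neighbours within each replicate are values without a test. Of 50 alternatives of the replicate results, 34 stayed within the spread used for each. For means over the replicates, leaving out 1 of them cannot exceed that spread, and merging regions cannot change a score rank. The count therefore does not measure how stable the results are. Leaving out 1 replicate gave covered shares of 0 to 2.51%, percentiles among windows of 6.13 to 14.8, 0 to 1 regions, longest gaps of 57.219 to 70.001 kb and differences from the neighbours of -17.8 to -17.3 percentage points. Shared bases could not be computed without either replicate, nor the score rank without replicate 1. With the higher-scoring 50% of each list, 0 regions remained in the window, so neither quantity could be given, and the difference from the neighbours was -15.3. Widened by 5 kb on each side, the window reached into the cluster before it, and both replicate lists together held 4 regions there. Its mean covered share was 3.80%, and the replicates shared 12.9% of the union. The median score percentile was 25.2 and the difference was -22.3. Narrowed by 5 kb on each side, the difference was -8.37, and with neighbours of 140 kb it was -24.5. Among regions of like width the score percentile was 72.0 instead of 16.3. Windows of 100 and 140 kb from the same start were added after seeing the data. The longest gap was 93.6 kb in the first and 114.9 kb in the second. The window of 140 kb reaches into the domain beyond. Over the replicates its mean covered share was 13.2% at mean percentile 18.7, with 5 regions in both lists together. The difference from the neighbours was below 0 in 35 of 36 alternatives, single sides and the combined list included. It was 0 against the low-coordinate side when only the better-scored 50% of combined regions were kept. These alternatives reuse the same 3 lists, and where the window was covered to 0% the difference could not be above 0. Unknown read depth limits every absence reported.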

Other observations

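The region of the combined list in the achaete-scute window was among the most isolated on X. Its nearer neighbour in the list was 45.9 kb away and the farther one 46.5 kb, and 5 of the 1727 regions of X with a neighbour on both sides were more isolated by the nearer distance, whose median was 560 bases. For the region of replicate 1 the nearer neighbour was 15.3 kb away and the farther one 109.2 kb, and 40 of 1333 regions were more isolated. Both observations were made after the values were seen, and the distances are the lengths of the gaps already given above. A region listed in a nearly empty window has distant neighbours by construction, and neither region was met by another list. The first 1 Mb of X, which holds the window, was covered to 26.0% by replicate 1, 28.3% by replicate 2 and 32.9% by the combined list, against 30.2%, 33.7% and 39.0% of the whole of X.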
